A study of Homo sapiens with 66 samples.

Results

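The 6 human genes of the ISG15 conjugation system were followed across all libraries of the series: ISG15, which encodes the ubiquitin-like modifier, UBA7 (the activating enzyme, E1), UBE2L6 (the conjugating enzyme, E2), HERC5 and HERC6 (E3 ligases of the HERC family), and USP18 (the ISG15-specific deconjugating protease). They were chosen by name, matched to the count tables by Ensembl identifier (ISG15 ENSG00000187608, UBA7 ENSG00000182179, UBE2L6 ENSG00000156587, HERC5 ENSG00000138646, HERC6 ENSG00000138642, USP18 ENSG00000184979), and are 6 of the 57820 genes listed. All 6 members passed the filter on low counts, which left 13193 genes in RNA-seq study 1 and 13650 genes in RNA-seq study 2. The series measured RNA in THP-1, a human monocytic leukemia cell line that carried a Cas9 transgene in every group and was nucleofected with synthetic gRNAs. In study 1, 48 libraries of total RNA came from a STING-deficient background, with 3 libraries per group and 16 groups. These were cells with a non-targeting gRNA (CTRL), GFP-targeted, hnRNPC-targeted, ADAR-targeted and doubly ADAR+hnRNPC-targeted cells, each group taken on day 3, on day 4 and on day 5. The remaining group was CTRL with IFN-α, taken on day 4. Every reaction held a pair of gRNA positions, and a non-targeting gRNA (NC1) filled any position without a target. In study 2, 18 libraries came from the WT background on day 4, with 2 libraries per group and 9 groups. CTRL, hnRNPC-targeted, ADAR-targeted and ADAR+hnRNPC-targeted cells were each sequenced from total RNA and from the digitonin-soluble cytosol, and hnRNPC-targeted cells also from the digitonin-insoluble material, which holds nuclei and mitochondria. The cells of each study stem from 1 clone, and the edited cells were used as a pool, so an RNA level averages over edited and unedited cells.

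ISG15 is made as a precursor and, like ubiquitin, is joined to target proteins by an enzyme cascade. UBA7 activates it, UBE2L6 carries it, HERC5 is the main human ligase, and USP18 takes it off again. Free ISG15 also acts outside this cascade, and USP18 independently holds back signaling at the type I interferon receptor. The genes are textbook interferon-stimulated genes (ISGs), whose promoters typically hold an element named ISRE that is bound by the factors activated at the interferon receptor. ADAR edits double-stranded RNA, and hnRNPC represses the inclusion of Alu-derived sequence in mRNA. The comparisons asked how far the loss of each factor, or of both, raised these genes and how this compared with IFN-α itself.

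The promoter windows are shown as background on the ISRE, and their link to the changes in level was not tested. RefSeq windows of 250 bases before to 50 bases after the start of transcription (GRCh38.p14) were given for 4 of the 6 genes, ISG15, UBE2L6 (a pair of windows), HERC5 and HERC6. UBA7 and USP18 were not analysed here. The letters GAAANNGAAA or, on the other strand, TTTCNNTTTC were searched as an ISRE-like motif, matches that overlap each other included. This motif was found in 3.57% of all 35116 windows. ISG15 held 2 matches and HERC5 held 3, and these letters were not in the HERC6 and UBE2L6 windows. The GAS-like letters TTCNNNGAA, found in 7.66% of all windows, were in none of the windows of these 4 genes. Each match below is in capitals, in a stretch of 30 bases on the plus strand. The ISG15 stretch begins 120 bases before the start, and those of HERC5 begin 132 and 84 bases before it.
ISG15, chr1:1013377-1013406: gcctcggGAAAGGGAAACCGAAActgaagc
HERC5, chr4:88456987-88457016: attacagTTTCCTTTTCCTTTTCgattccg
HERC5, chr4:88457035-88457064: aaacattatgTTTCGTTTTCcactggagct
In GRCh37, the build of the count tables, HERC6 (chr4:89299891-89364249) and HERC5 (chr4:89378270-89427314) lie next to each other on the plus strand. ISG15 spans chr1:936518-949920 and USP18 chr22:18632885-18660164, both on the plus strand. UBA7 (chr3:49842642-49851386) and UBE2L6 (chr11:57319129-57335757) lie on the minus strand. These spans are those of GENCODE v44 lifted to GRCh37. That of ISG15 holds an antisense RNA gene and a pseudogene on the other strand, whose reads could not be kept apart from those of ISG15 where exons overlap if counting ignored strand. Those of UBA7 and HERC5 each hold a microRNA gene on their own strand.

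Libraries held 95107690 to 152829008 gene counts in study 1 and 49666958 to 73873756 in study 2. HNRNPC mRNA fell by 1.09, 1.18 and 1.39 on the log2 scale in hnRNPC-targeted cells of study 1 on days 3, 4 and 5. ADAR mRNA hardly differed between ADAR-targeted and CTRL cells of study 1 (mean 386 against 394 CPM, the counts scaled to a common library size, on day 5), so RNA alone does not check this target there. In study 2 ADAR mRNA averaged 506 CPM in ADAR-targeted and 864 CPM in CTRL total RNA. Of 7 monocytic markers, SPI1, CD33, LYZ, PTPRC, CSF1R and MPO were at 3.84 CPM or more in every library of study 1, whereas CD68 did not exceed 0.292 CPM. The markers of T cells, B cells, epithelium and fibroblasts (CD3E, MS4A1, EPCAM, KRT18 and COL1A1) did not exceed 0.311 CPM in any library.

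In CTRL cells of study 1 the 6 genes were far from equal. UBA7 was the abundant member, with 166, 151 and 171 CPM in the 3 CTRL libraries of day 5. ISG15 had 5.85, 6.04 and 6.71 CPM in the same libraries, and UBE2L6 had 9.87, 10.1 and 8.44 CPM. HERC6 had 5.62 to 6.51 CPM and overlapped with ISG15, whereas HERC5 (4.38 to 5.35 CPM) and USP18 (3.51 to 4.38 CPM) lay below both. Since these genes differ in length, their levels were compared per kilobase of annotated exon. On that scale UBA7 mRNA made up 70.8% ± 1.41 (SD, n = 3) of the summed level of the 6 genes in CTRL cells of day 5, and ISG15 14.2% ± 0.844. HERC5, HERC6 and USP18 each made up 1.87% to 2.06%, and their order was within the spread of the libraries.

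**Figure D1:**
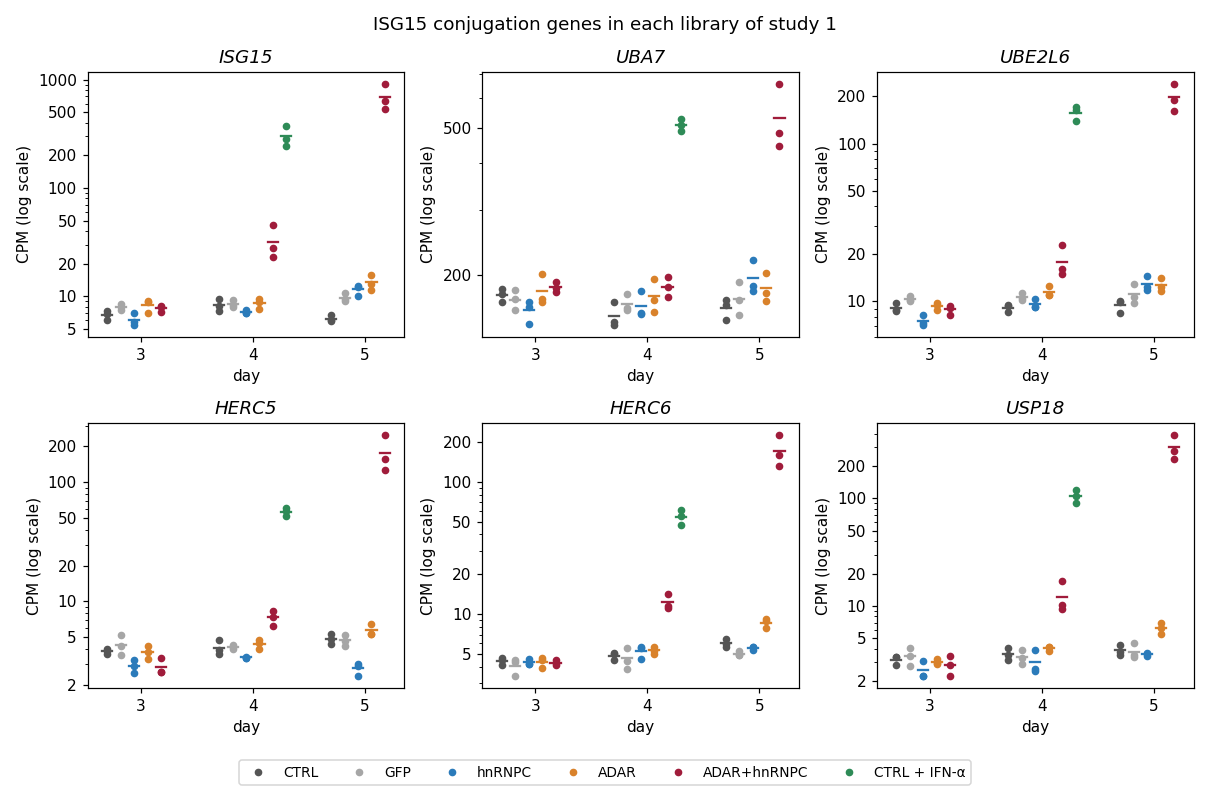
Level of each gene in CPM (log axis) in every library of study 1, by day, with 3 points and a mean line per group. UBA7 lies between 147 and 219 CPM in the 39 libraries outside IFN-α and the double-targeted groups of days 4 and 5, and all 6 genes stand highest in IFN-α and in ADAR+hnRNPC on day 5.

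IFN-α raised the whole system. All 6 genes were called higher in IFN-α-treated than in CTRL cells on day 4, against 1.21% of all tested genes (calls needed an adjusted p no greater than 0.05 and a change of 1 or more on the log2 scale). The median of the 6 log2 fold changes was 3.95, beside 0.02 for all genes tested. In bulk RNA, fewer responding cells and less RNA per cell cannot be told apart.
ISG15 had 8.08, 7.28 and 9.35 CPM in CTRL and 283, 373 and 242 CPM with IFN-α, and the groups did not overlap. The log2 fold change was 5.18 (SE 0.20, adjusted p = 1.16e-22), the largest of the 6.
USP18, the deconjugating protease, had 3.12, 3.52 and 4.06 CPM in CTRL and 90.0, 105 and 119 CPM with IFN-α. Its log2 fold change was 4.87 (SE 0.21, adjusted p = 5.38e-21).
UBE2L6 rose by a log2 fold change of 4.10 (SE 0.14, adjusted p = 1.31e-24), HERC5 by 3.80 (SE 0.17, adjusted p = 9.90e-21) and HERC6 by 3.49 (SE 0.14, adjusted p = 3.14e-22).
UBA7, which was abundant from the start, had 169, 149 and 147 CPM in CTRL and 488, 529 and 509 CPM with IFN-α, and again the groups did not overlap. Its log2 fold change of 1.71 (SE 0.10, adjusted p = 1.53e-16) was the smallest of the 6.

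ADAR+hnRNPC targeting raised the genes in steps over the days. On day 3 none of the 6 was called in edgeR (0.864% of all tested genes were called higher and 0.303% lower), 1 had an unadjusted p under 0.05, and limma-voom and DESeq2 called 0. That 1 gene was HERC5, at 2.57, 2.56 and 3.33 CPM in ADAR+hnRNPC and 3.85, 3.63 and 3.95 CPM in CTRL, a log2 difference of -0.43 (SE 0.17, adjusted p = 0.048) that was under the fold limit.
On day 4, 3 of the 6 genes were called higher, against 3.42% of all tested genes: ISG15, HERC6 and USP18. ISG15 had 23.0, 27.8 and 45.02 CPM in ADAR+hnRNPC cells on that day, above each CTRL library (log2 fold change 1.95, SE 0.18, adjusted p = 1.15e-11). USP18 had 9.28, 10.3 and 17.1 CPM (log2 fold change 1.77, SE 0.20, adjusted p = 9.62e-10). HERC6 had 11.2, 11.6 and 14.1 CPM (log2 fold change 1.34, SE 0.13, adjusted p = 7.33e-11). Replicate 3 was the highest of the 3 double-targeted libraries for each of these genes.
UBE2L6 (14.8, 15.9 and 22.8 CPM) and HERC5 (6.26, 7.39 and 8.37 CPM) were also above every CTRL library of day 4, with log2 fold changes of 0.97 (SE 0.12, adjusted p = 2.91e-08) and 0.85 (SE 0.16, adjusted p = 2.24e-05) that did not reach the fold limit. UBA7 had 197, 175 and 186 CPM against 147 to 169 CPM in CTRL, a log2 difference of 0.26 (SE 0.10, adjusted p = 0.025), also under the fold limit.

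On day 5 all 6 genes were called higher in ADAR+hnRNPC than in CTRL cells, against 9.41% of all tested genes, and for each gene the lowest double-targeted library lay above the highest CTRL library. The median log2 fold change was 5.02, beside -0.04 for all genes tested.
ISG15 reached 541, 633 and 914 CPM, a log2 fold change of 6.81 (SE 0.22, adjusted p = 8.96e-26), or 112-fold. USP18 reached 233, 276 and 386 CPM, a log2 fold change of 6.27 (SE 0.23, adjusted p = 3.16e-24). The ligase HERC5 reached 128, 158 and 248 CPM (log2 fold change 5.20, SE 0.18, adjusted p = 1.01e-24). All 3 genes were highest in replicate 3.
HERC6 reached 132, 160 and 224 CPM (log2 fold change 4.84, SE 0.15, adjusted p = 2.24e-26). UBE2L6 reached 161, 188 and 239 CPM (log2 fold change 4.37, SE 0.14, adjusted p = 6.43e-26). UBA7 reached 447, 484 and 656 CPM (log2 fold change 1.70, SE 0.10, adjusted p = 2.26e-17). As with IFN-α, the E1 gene had the smallest fold of the 6 from the highest starting level.
Between consecutive days the double-targeted cells gained 5 of the 6 genes from day 3 to day 4 (1.2% of all tested genes were called higher) and all 6 from day 4 to day 5 (3.41%). UBA7 was the exception in the earlier step, with a log2 difference of 0.00 (SE 0.10, adjusted p = 0.985). Of the 5, UBE2L6 was at the fold limit, with a log2 difference of 1.01 (SE 0.13) that was 0.79 without ADAR+hnRNPC replicate 3 of day 4.

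**Figure D2:**
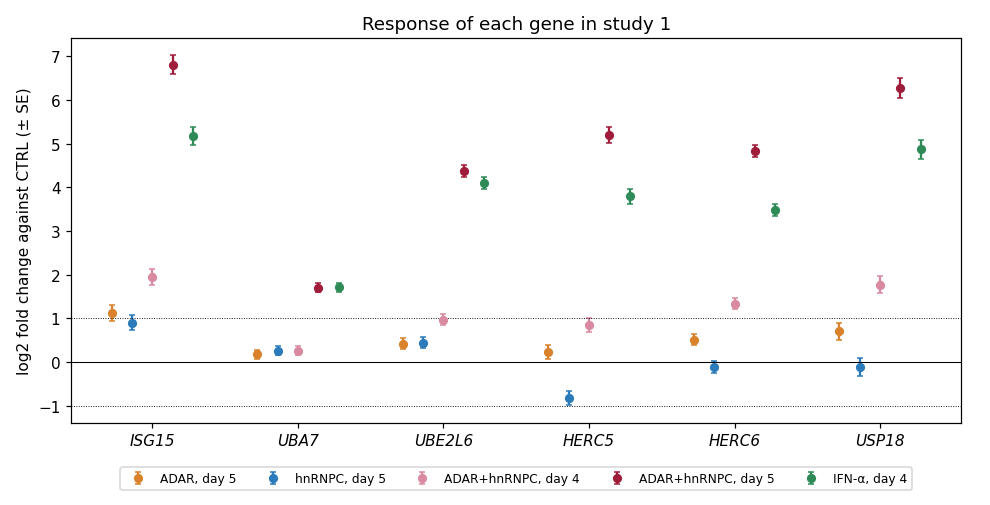
Log2 fold change against the CTRL cells of the same day (points) with its standard error (bars), from edgeR, for 5 comparisons of study 1, with dotted lines at the fold limit. ADAR+hnRNPC on day 5 lies above IFN-α for ISG15, HERC5, HERC6 and USP18, and the pair of points coincides for UBA7 at 1.70 and 1.71.

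The double-targeted response of day 5 and the response to IFN-α were then compared directly, each against the CTRL cells of its own day. These are responses on different days, to different stimuli and after unlike times of exposure. The response to ADAR+hnRNPC targeting was called larger for 4 of the 6 genes, against 8.95% of all tested genes. ISG15 differed by 1.63 on the log2 scale (SE 0.25, adjusted p = 4.60e-07), USP18 by 1.40 (SE 0.27, adjusted p = 2.11e-05), HERC5 by 1.40 (SE 0.22, adjusted p = 9.07e-07) and HERC6 by 1.35 (SE 0.18, adjusted p = 5.05e-08).
The E1 and E2 genes were not called. UBA7 differed by -0.01 (SE 0.14, adjusted p = 0.941), and its libraries overlapped between the groups. UBE2L6 differed by 0.27 (SE 0.17, adjusted p = 0.178), and the lowest double-targeted library (161 CPM) lay below the highest IFN-α library (171 CPM). In the order of mean levels over the 16 groups of study 1, ADAR+hnRNPC on day 5 stood first and IFN-α next for each gene. These leading groups overlapped for UBA7 and UBE2L6, and did not overlap for the other 4 genes. ADAR+hnRNPC on day 4 was the next group down for 5 genes, whereas for UBA7 hnRNPC on day 5 (196 CPM ± 20.6, SD, n = 3) came next, overlapping with the groups that followed.

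The makeup of the system changed with these unequal folds. Per exonic length, ISG15 mRNA made up 18.8% ± 2.32 of the summed level in CTRL cells of day 4, 59.1% ± 5.09 with IFN-α and 69.4% ± 0.797 in ADAR+hnRNPC cells of day 5 (SD, n = 3 each). UBA7 fell from 67.3% ± 2.77 to 19.5% ± 2.17 and 10.2% ± 0.617 in the same groups. UBE2L6 was at 8.78% ± 0.369, 13.3% ± 1.62 and 8.32% ± 0.516. USP18 went from 1.73% ± 0.284 to 4.47% ± 0.949 and 6.32% ± 0.0599. HERC5 (3.19% ± 0.260) and HERC6 (2.57% ± 0.0535) were the smallest parts in ADAR+hnRNPC cells of day 5. In CTRL cells of study 2 UBA7 made up 45.6% ± 1.31 and ISG15 31.2% ± 1.54 in total RNA (SD, n = 2 each). In their cytosolic RNA ISG15 led with 41.8% ± 0.785, and UBA7 had 25.1% ± 0.576. These shares are a description of mRNA levels and were not tested. With the length of the longest transcript in place of the union of exons, ISG15 made up 64.6% and UBA7 11.8% in ADAR+hnRNPC cells of day 5.

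**Figure D3:**
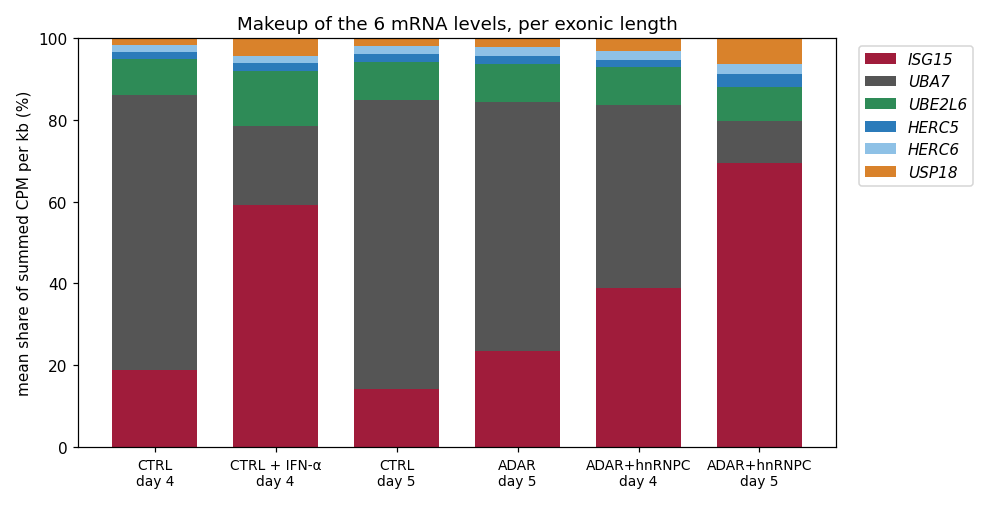
Mean share (n = 3) of each gene in the summed level of the 6 genes, in percent of CPM per kilobase of annotated exon, for 6 groups of study 1. UBA7 is the largest part in CTRL cells, and ISG15 the largest part with IFN-α and in ADAR+hnRNPC cells of day 5.

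ADAR targeting alone had small effects in the STING-deficient cells. On days 3 and 4 edgeR called none of the 6 genes (0% and 0.0682% of all tested genes were called higher, and 0% lower), with 0 and 1 genes at an unadjusted p under 0.05 and 0 called by limma-voom or DESeq2. On day 5 ISG15 was the 1 gene called higher, against 0.273% of all tested genes, with 15.8, 11.5 and 13.0 CPM in ADAR-targeted and 5.85, 6.04 and 6.71 CPM in CTRL cells (log2 fold change 1.12, SE 0.18, adjusted p = 1.38e-04). With GFP-targeted cells as the control, which had 10.6, 9.06 and 9.41 CPM, the log2 fold change was 0.47 (SE 0.18, adjusted p = 0.164) and the call was lost. It was 0.99 without ADAR replicate 1.
USP18 (log2 fold change 0.70, SE 0.20, adjusted p = 0.023) and HERC6 (0.52, SE 0.13, adjusted p = 0.012) were below the fold limit on day 5, although no library overlapped with CTRL.

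hnRNPC targeting alone moved none of the 6 genes past the limits on any day. The shares of all tested genes called higher were 0.553%, 1.59% and 3.98% on days 3, 4 and 5, and those called lower 0.485%, 1.63% and 3.74%. In edgeR 2, 0 and 4 of the 6 genes had an unadjusted p under 0.05, and limma-voom and DESeq2 called 0 on each day. On day 5 the 4 genes did not share a direction. ISG15 had 12.5, 10.1 and 12.2 CPM, above each CTRL library (log2 difference 0.90, SE 0.18, adjusted p = 3.76e-05), UBE2L6 differed by 0.45 (SE 0.12, adjusted p = 1.96e-03) and UBA7 by 0.27 (SE 0.10, adjusted p = 0.021). HERC5 went the other way, with 2.99, 2.89 and 2.35 CPM against 4.82, 5.35 and 4.38 CPM in CTRL (log2 difference -0.82, SE 0.16, adjusted p = 3.97e-05). With GFP-targeted cells as the control, the difference of ISG15 was 0.26, and that of HERC5 stayed between -0.89 and -0.72 over all the alternatives tried.
In GFP-targeted cells edgeR called 0 of the 6 genes on days 3, 4 and 5 (0.0227%, 0% and 0.189% of all tested genes were called higher, and 0%, 0% and 0.0227% lower), with 0, 0 and 1 genes at an unadjusted p under 0.05 and 0 called by limma-voom or DESeq2. The 1 gene was ISG15 on day 5, at a log2 difference of 0.64 (SE 0.18, adjusted p = 0.026).

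The double-targeted cells were also set against each single target. Relative to ADAR-targeted cells, 0, 3 and 6 of the 6 genes were called higher on days 3, 4 and 5 (0.584%, 2.73% and 7.47% of all tested genes, with 0.326% called lower on day 3), and on day 3 limma-voom and DESeq2 also called 0, with 1 gene at an unadjusted p under 0.05. Relative to hnRNPC-targeted cells the counts were 0, 4 and 6 (0.0834%, 1.2% and 5.82% of all tested genes), again with 1 gene at an unadjusted p under 0.05 and 0 calls of the other tools on day 3. HERC5 had the largest fold against a single target after USP18, with a log2 difference of 6.02 (SE 0.19, adjusted p = 5.18e-26) from hnRNPC-targeted cells on day 5. That of USP18 was 6.38 (SE 0.23, adjusted p = 2.92e-24).
The interaction asks whether the double-targeted response exceeded the sum of the single responses on the log2 scale, and was called at an adjusted p no greater than 0.05, without a fold limit. On day 3, 0 of the 6 genes passed (0% of all tested genes were higher), with 0 at an unadjusted p under 0.05 and 0 by limma-voom with sample quality weights or DESeq2. On day 4, 4 of the 6 genes passed with a positive sign, against 3.11% of all tested genes, and on day 5 all 6, against 23.2%. On day 5 the interaction was 5.77 for HERC5 (SE 0.28, adjusted p = 1.35e-09), 5.66 for USP18 (SE 0.22, adjusted p = 2.77e-10), 4.77 for ISG15 (SE 0.23, adjusted p = 1.43e-09) and 4.41 for HERC6 (SE 0.21, adjusted p = 8.95e-10). UBE2L6 followed with 3.49 (SE 0.18, adjusted p = 2.78e-09) and UBA7 with 1.24 (SE 0.17, adjusted p = 3.85e-05).
On day 4 ISG15 (2.09, SE 0.27, adjusted p = 1.15e-03), USP18 (1.84, SE 0.32, adjusted p = 6.79e-03), HERC6 (1.10, SE 0.16, adjusted p = 2.90e-03) and HERC5 (1.01, SE 0.19, adjusted p = 0.010) passed. UBE2L6 (0.58, SE 0.19, adjusted p = 0.110) and UBA7 (0.00, SE 0.12, adjusted p = 0.997) did not. The result for UBE2L6 turned on the setting, since it passed in 7 of 20 alternatives, with adjusted p from 0.010 to 0.236 over all of them.

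In study 2, whose cells were of the WT background, the 5 genes other than UBA7 stood higher in ADAR-targeted cells on day 4. In total RNA 4 genes were called higher than in CTRL, against 2.04% of all tested genes.
ISG15 had 18.98 and 13.5 CPM in CTRL and 82.5 and 55.0 CPM in ADAR-targeted total RNA (log2 fold change 2.08, SE 0.37, adjusted p = 1.88e-03), so the groups did not overlap. USP18 had 10.6 and 7.09 CPM in CTRL and 40.2 and 28.7 CPM in ADAR-targeted total RNA (log2 fold change 1.96, SE 0.31, adjusted p = 7.47e-04). HERC6 rose by a log2 fold change of 1.60 (SE 0.27, adjusted p = 1.08e-03), and the call of UBE2L6 (1.14, SE 0.35, adjusted p = 0.041) was lost in DESeq2 (adjusted p = 0.072).
HERC5 had 16.6 and 11.6 CPM in CTRL and 30.1 and 23.4 CPM in ADAR-targeted total RNA, a log2 difference of 0.92 (SE 0.23, adjusted p = 0.016) under the fold limit. UBA7 had 154 and 97.9 CPM in CTRL and 168 and 119.8 CPM in ADAR-targeted total RNA, and these libraries overlapped (log2 difference 0.19, SE 0.22, adjusted p = 0.617). Replicate 1 was above replicate 2 for each gene in each group of total RNA.
In ADAR+hnRNPC-targeted total RNA 5 genes were called higher than in CTRL, against 3.36% of all tested genes, UBA7 being the exception (0.27, SE 0.22, adjusted p = 0.361). ISG15 had 130.5 and 81.9 CPM (log2 fold change 2.71, SE 0.38, adjusted p = 9.40e-05), and USP18 81.1 and 42.3 CPM (2.80, SE 0.32, adjusted p = 1.65e-05). HERC6 had 76.3 and 48.1 CPM (2.46, SE 0.27, adjusted p = 1.20e-05). UBE2L6 (1.65, SE 0.35) and HERC5 (1.57, SE 0.23) were also called, and UBE2L6 lost its call without ADAR+hnRNPC replicate 1 (1.09, adjusted p = 0.053).
In hnRNPC-targeted total RNA edgeR, limma-voom and DESeq2 each called 0 of the 6 genes (0.278% of all tested genes were called higher and 0.454% lower), with 2 at an unadjusted p under 0.05, ISG15 (log2 difference 0.95, SE 0.36, adjusted p = 0.127) and USP18 (0.72, SE 0.31, adjusted p = 0.169). The interaction in total RNA passed for 0 genes in edgeR (7.18% of all tested genes were higher), with 0 at an unadjusted p under 0.05, 0 in limma-voom and 1 in DESeq2. That gene was HERC5 (0.85 in DESeq2, adjusted p = 0.038, and 0.67 in edgeR, SE 0.32, adjusted p = 0.132). Whether the 2 studies differ in these responses was not tested, since they were counted and normalized as separate tables and differ in clone, gRNAs and depth.

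The fractions separated UBA7 from the rest. Over the 4 gRNA groups UBA7 was lower in cytosolic than in total RNA, with a log2 difference of -1.07 (SE 0.11, adjusted p = 2.35e-07), and was the 1 gene called lower, against 8.29% of all tested genes. All 8 cytosolic libraries, at 58.5 to 89.2 CPM, lay below all 8 total libraries, at 97.9 to 178 CPM. Without CTRL replicate 1 of total RNA the difference was -0.98, just short of the fold limit. No gene was called higher in the cytosol (0.601% of all tested genes). UBE2L6 came nearest at 0.58 (SE 0.17, adjusted p = 5.87e-03), and the other 4 genes lay between 0.08 (HERC5) and 0.29 (USP18), beside a median of 0.17 for all genes tested.
Between the cytosolic and insoluble fractions of hnRNPC-targeted cells UBA7 was again called lower in the cytosol, against 15% of all tested genes. As 1 of 6 genes, this count is near that share. It had 69.6 and 58.5 CPM in the cytosolic and 178 and 155 CPM in the insoluble libraries (log2 difference -1.38, SE 0.23, adjusted p = 3.99e-05). Called higher in the cytosol, against 15.5% of all tested genes, were 2 genes. UBE2L6 had 32.2 and 21.7 CPM there and 7.95 and 11.4 CPM in the insoluble libraries (1.48, SE 0.36, adjusted p = 1.46e-03). ISG15 had 42.9 and 21.3 CPM against 11.8 and 18.3 CPM (1.09, SE 0.37, adjusted p = 0.014), a call that was lost without either first replicate. MT-ND1, a mitochondrial transcript, averaged 2.15 CPM in the cytosolic and 53.4 CPM in the insoluble libraries of these cells, whereas MALAT1, a nuclear RNA, averaged 818 and 2145 CPM, so nuclear RNA was not absent from the cytosolic libraries. Its part in these values was not tested.
The same gRNA groups were compared within the cytosol. In ADAR-targeted cytosolic RNA 4 genes were called higher than in CTRL cytosol (4.6% of all tested genes) and in ADAR+hnRNPC-targeted cytosolic RNA 5 (6.67%), again all but UBA7 in the latter. ISG15 had 21.1 and 19.5 CPM in CTRL cytosol and 199.5 and 109.7 CPM in ADAR+hnRNPC cytosol (log2 fold change 2.93, SE 0.38, adjusted p = 2.01e-05). In hnRNPC-targeted cytosol edgeR, limma-voom and DESeq2 called 0 genes (0.256% of all tested genes were called higher and 0.227% lower), with 0 at an unadjusted p under 0.05. The test of the difference between the cytosolic and total responses to double targeting called 0 genes in the same tools (2.55% of all tested genes were higher in the cytosol and 0.0366% lower), with 0 at an unadjusted p under 0.05. These differences ranged from 0.01 (HERC6, SE 0.37) to 0.31 (USP18, SE 0.43), so their errors leave room for sizeable differences in either direction. The corresponding difference was not tested for ADAR or hnRNPC targeting alone.

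**Figure D4:**
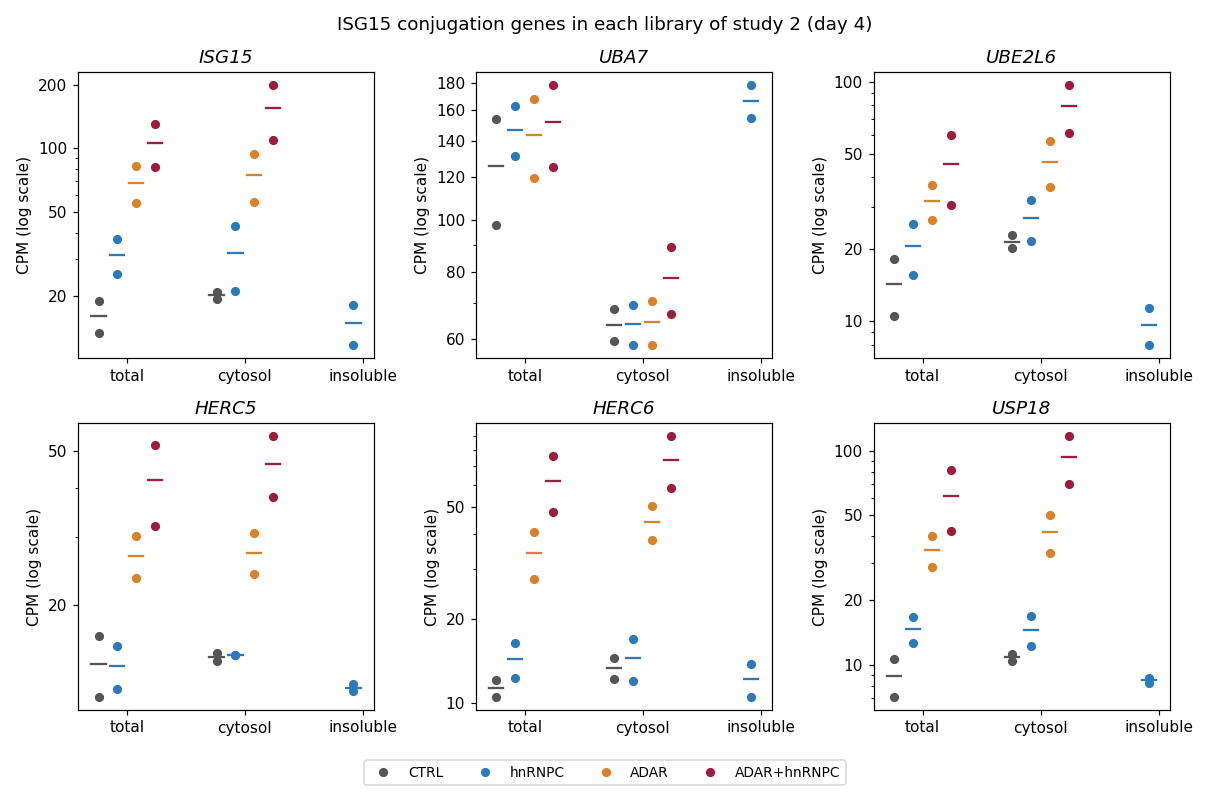
Level of each gene in CPM (log axis) in every library of study 2, with 2 points and a mean line per group, for total, cytosolic and digitonin-insoluble RNA. The cytosolic libraries of UBA7 lie at 58.5 to 89.2 CPM, below its total and insoluble libraries. For the other genes the means rise from CTRL to ADAR to ADAR+hnRNPC in total and cytosolic RNA, while those of HERC5 hardly differ between CTRL and hnRNPC.

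Intronic reads were counted in study 1 and rose with the mRNA. The intron table held 83 introns within the spans of the 6 genes, and 7 of these, all of UBA7, passed the filter on low counts. The 23 intron entries of UBA7 stand beside 11 transcripts in the annotation used here (GENCODE v44, lifted to GRCh37), of which 9 are retained-intron transcripts, so that some intronic reads of UBA7 can be part of its gene count too. All 7 introns were called higher with IFN-α, against 0.818% of all tested introns, and in ADAR+hnRNPC cells of day 5, against 5.56%, with log2 fold changes of 1.34 to 1.86 and 1.58 to 2.10. The intron at chr3:49848889-49849302 had the largest value in both comparisons. In ADAR+hnRNPC cells of day 4 none of the 7 was called (3.63% of all tested introns were called higher), their median being 0.71, 5 had an unadjusted p under 0.05, and limma-voom also called 0. Several of the 7 had an adjusted p under 0.05 in edgeR (lowest 0.017) and missed the fold limit, the largest log2 fold change being 0.81.
For the other genes the introns were summed. Summed intron counts of USP18 averaged 0.94 CPM in CTRL cells of day 4, 21.2 CPM with IFN-α and 49.0 CPM in ADAR+hnRNPC cells of day 5. Those of HERC6 averaged 2.02, 17.3 and 48.5 CPM and those of HERC5 0.60, 6.64 and 32.5 CPM in the same groups.
Relative to gene counts, the intronic reads were not the same in both states. Retained-intron transcripts are also annotated for HERC6 (3), HERC5 (2), UBE2L6 (1) and USP18 (1), so intron and gene counts can share reads in these genes too. UBE2L6 had 5.17, 4.83 and 4.37 intron counts per 100 gene counts with IFN-α and 8.43, 8.34 and 8.49 in ADAR+hnRNPC cells of day 5. HERC5 had 13.0, 10.9 and 11.4 with IFN-α and 20.4, 18.6 and 16.9 in ADAR+hnRNPC cells. UBA7 had 19.7, 14.4 and 15.4 with IFN-α and 22.1, 21.8 and 22.4 in ADAR+hnRNPC cells. The groups did not overlap for these 3 genes, with the double-targeted cells higher.
The ratio of UBA7 in the double-targeted cells was also that of cells targeted for hnRNPC alone on day 5 (mean 22.1, range 21.3 to 23.1), while CTRL cells of day 5 had 19.1 (17.7 to 20.7). For UBE2L6 the day 5 means were 4.73 in CTRL, 5.19 in hnRNPC-targeted and 6.14 in ADAR-targeted cells, with a highest library of 6.62, below each double-targeted library. CTRL cells of day 4, the controls of IFN-α, had 17.0 for UBA7 and 6.06 for UBE2L6. On day 3 UBE2L6 spanned 5.88 to 9.87 in CTRL and 4.24 to 9.36 in ADAR-targeted cells. Both ranges include the double-targeted values of day 5.
USP18 showed the opposite order without overlap, at 17.7 to 25.3 with IFN-α and 15.8 to 16.8 in ADAR+hnRNPC cells, and ISG15 (1.46 to 1.99 and 1.78 to 1.90) and HERC6 (26.0 to 43.0 and 27.0 to 29.1) overlapped. USP18 averaged 27.0 in CTRL cells of day 4, and on day 5 28.2 in CTRL, 28.5 in hnRNPC-targeted and 21.8 in ADAR-targeted cells. An exact permutation test of 3 against 3 libraries cannot fall below p = 0.1, so these ratios are given as a description. In hnRNPC-targeted cells of day 5, whose HERC5 level was low, HERC5 had 16.8 ± 2.24 intron counts per 100 gene counts (SD, n = 3), beside 13.9 ± 1.64 in CTRL. The highest HERC5 ratio within the group was 19.2 in hnRNPC-targeted and 18.3 in ADAR-targeted cells of day 5, and 18.7 in CTRL cells of day 4. Each of these groups overlapped with the double-targeted libraries of day 5. ADAR+hnRNPC cells of day 4 had the highest mean HERC5 ratio of all groups of study 1, 21.6 (23.7, 21.2 and 19.9). HERC5 itself was at 6.26 to 8.37 CPM in those libraries.

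**Figure D5:**
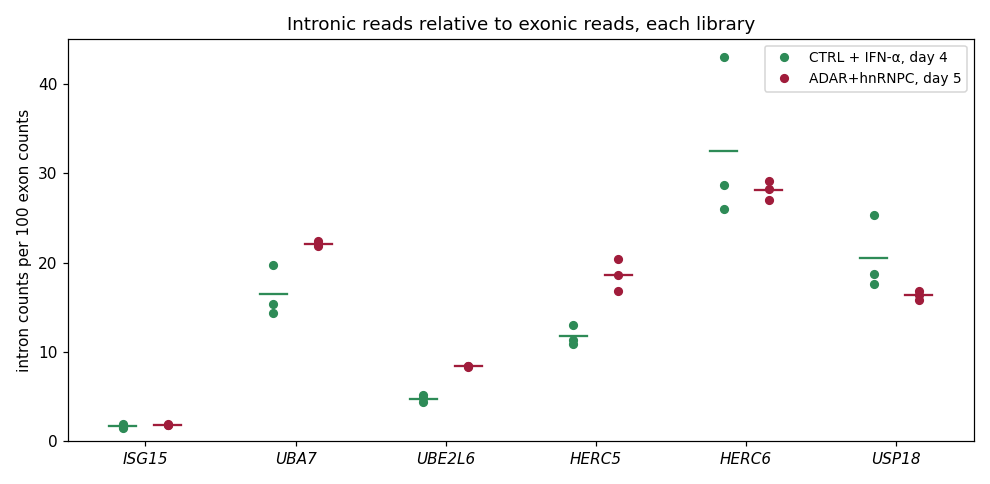
Summed intron counts per 100 gene counts for each gene in the 3 IFN-α libraries of day 4 and the 3 ADAR+hnRNPC libraries of day 5, with a mean line per group. UBE2L6, HERC5 and UBA7 are higher in ADAR+hnRNPC without overlap, and USP18 is lower.

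A-to-I editing sites within these genes were few. No member held an editing cluster region in either study, and in study 1 the site table held 5 positions in 1 gene, USP18, against 0 positions in study 2. The 5 lie within an intron of USP18, and 5 of 5 are an A in the reference.
Reads covered these sites mainly where USP18 was high. IFN-α-treated cells had 159 site reads, of which 14 carried the edited base (8.81%, 95% Wilson interval 5.32% to 14.2%). ADAR+hnRNPC cells of day 5 had 435 site reads with 10 edited (2.30%, Wilson interval 1.25% to 4.18%). The other 14 groups had 0 to 24 site reads each, with 0 edited, so that even the best covered of them, 24 reads in ADAR+hnRNPC cells of day 3, has an upper Wilson bound of 13.8%.
By library, the edited share was 10.0%, 7.84% and 5.56% with IFN-α (90, 51 and 18 reads) and 2.60%, 3.57% and 1.18% in ADAR+hnRNPC cells of day 5 (154, 112 and 169 reads), so the groups did not overlap. At the site with the most edited reads these were 7 of 32 with IFN-α and 5 of 85 in ADAR+hnRNPC cells. By the study's methods a site was kept only if it was edited in a sample without ADAR targeting. Among such groups only the one with IFN-α had edited reads at these sites. The gap between the groups can therefore not be told apart from this selection. Neighbouring sites share reads, so the intervals cover counting error only and are too narrow, and an exact permutation test of 3 against 3 libraries cannot fall below p = 0.1, so these shares are given as a description.

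Lists of related genes were read in the same comparisons. Of 10 other proposed ISG15 ligases, proteases and the receptor subunits, all tested, 2 were called higher in ADAR+hnRNPC cells of day 5 and 1 with IFN-α (9.41% and 1.21% of all tested genes). TRIM25, a ubiquitin and ISG15 ligase of antiviral sensing, was called in both (log2 fold change 1.34, SE 0.07, and 1.11, SE 0.06). ITGAL, a subunit of the integrin LFA-1, which binds secreted ISG15, was called in ADAR+hnRNPC cells (1.98, SE 0.10). ITGAL was also called in hnRNPC-targeted cells of day 5 (1.54, SE 0.10, adjusted p = 4.81e-16), and it differed by -0.09 (SE 0.10, adjusted p = 0.599) with IFN-α. The median of the 10 genes was 0.18 in ADAR+hnRNPC cells of day 5.
Of 10 paralogs of the enzymes 9 were tested and 0 were called in either comparison, with a median of -0.19 in ADAR+hnRNPC cells of day 5. HERC3, which neighbours HERC5 and HERC6, differed by -0.29 (SE 0.06, adjusted p = 1.34e-04) there and by 0.08 (SE 0.06, adjusted p = 0.411) with IFN-α. USP41, a near copy of USP18 on the same chromosome, did not pass the filter, and averaged 0.563 CPM in CTRL cells of day 4 and 1.15 CPM with IFN-α. On day 5 it spanned 0.570 to 0.885 CPM in CTRL and 0.760 to 2.18 CPM (mean 1.38) in ADAR+hnRNPC cells, and these libraries overlapped. Reads that fit both copies were not counted, so the 2 genes' levels are minimum values.
Of 13 ubiquitin and other ubiquitin-like genes 12 were tested and 0 were called in either comparison. Their median log2 fold change was -0.68 in ADAR+hnRNPC cells of day 5, beside -0.04 for all genes tested, with SUMO2 lowest at -0.91 (SUMO2 was chosen after its value was seen), and 0.06 with IFN-α.
Of 11 genes of type I interferon signaling and its feedback, 10 were tested. With IFN-α 3 were called higher (1.21% of all tested genes), among them the transcription factor genes STAT2 (log2 fold change 1.73, SE 0.10) and IRF9 (2.60, SE 0.31). In ADAR+hnRNPC cells of day 5, 4 of the 10 were called higher (9.41%) and 1 lower (6.22%). The median of the 10 was 0.14 with IFN-α and 0.30 in ADAR+hnRNPC cells of day 5. In the latter STAT2 rose by 2.47 (SE 0.10) and IRF9 by 2.88 (SE 0.31). SOCS3, a feedback inhibitor of cytokine receptors, rose by 1.05 (SE 0.23), and SKP2, a ubiquitin ligase subunit, fell by 1.45 (SE 0.07). SOCS3 had 3.13 to 3.74 CPM in CTRL, 5.69 to 6.21 CPM in hnRNPC-targeted (log2 difference 0.80, SE 0.23, adjusted p = 2.26e-03, under the fold limit) and 6.11 to 8.78 CPM in ADAR+hnRNPC cells of day 5, and the GFP-targeted libraries of that day spanned 2.71 to 9.27 CPM, the highest of them above each double-targeted library. SOCS1, a feedback inhibitor of the interferon receptor kinases, did not pass the filter and averaged 0.418 CPM in CTRL cells of day 4, 0.581 CPM with IFN-α and 3.89 CPM in ADAR+hnRNPC cells of day 5. IFNB1, which encodes IFN-β, averaged 0.0333 CPM in CTRL and 17.5 CPM in ADAR+hnRNPC cells of day 5, and 0.0135 CPM with IFN-α.

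Over the 16 group means of study 1 the log2 levels of the 6 genes ran close to each other, with Pearson r from 0.948 (UBA7 and HERC6) to 0.994 (USP18 and HERC6). These values describe groups that share a clone and are set by the few high groups. Among all other tested genes the nearest to ISG15 were MX2 (r = 0.994), PARP9 (0.990) and XAF1 (0.989), and those nearest to USP18 were MX2 (0.995), DHX58 (0.994) and DDX60 (0.994). UBE2L6 was nearest to IFITM1 (0.993), MX2 (0.993) and LAP3 (0.993). HERC5 was nearest to DDX60 (0.998), PLSCR1 (0.997) and STAT2 (0.994), and HERC6 to IFI16 (0.996), SP110 (0.994) and IFIH1 (0.993). UBA7, with its smaller range, was nearest to LY6E (0.984), LAP3 (0.980) and IFITM3 (0.979).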

How the data were processed

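RNA was sequenced by the study from ribosomal RNA-depleted stranded libraries. Per the labels and the study's methods, the authors aligned reads to GRCh37 with STAR 2.5.4a, and deposited raw counts of uniquely mapped fragments per gene (featureCounts, GENCODE v19 exons), per intron, per editing cluster region (ECR) and per editing site, unnormalized and unpooled. Whether strand was used in counting is not given in the sources used here. Gene symbols were found for 55538 of 57820 identifiers, and coordinates and lengths came from GENCODE v44 lifted to GRCh37.

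Genes with an average log2 CPM of at least 0.5 (introns at least 1) were tested with edgeR 4.0.16 (R 4.3.3) quasi-likelihood tests, TMM normalization and 1 coefficient per group over all libraries of a study, or over the 12 libraries of a day for interactions, with Benjamini-Hochberg adjustment over all tested genes. Levels are CPM on TMM library sizes. The code was tested on simulated data. Alternatives were limma-voom (limma 3.58.1), DESeq2 1.42.0, RLE factors, raw totals, no filter, a replicate block, GFP as control, only the compared groups, and leaving out each library. Within groups, no pair of libraries differed by less than sampling noise (chi-square per gene of at least 12.1). The study describes the libraries of a group as independent experiments. Replicate numbers are shared across groups. Deviations of same-numbered libraries correlated with r from -0.22 to 0.75 in study 1, and every pair exceeded 0.1 in 10 of 21 comparisons. The members and lists were chosen with earlier results of these data known. Named were the 6 members, USP41, IFNB1, HERC3, SOCS1, SOCS3, STAT2, IRF9, up to 3 called genes of each list with the largest change in ADAR+hnRNPC cells of day 5, and the 3 genes nearest to each member over the group means, and 1 gene of the rule and 1 sequence are not reported here. The comparison of the double-targeted response between days 4 and 5 was added after seeing the data. Intervals cover counting error only, since reads are not independent molecules.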

Additional observations from a re-analysis of the deposited data

Results flagged for a closer look

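The response to ADAR+hnRNPC targeting, taken against the CTRL cells of the same day, differed between day 5 and day 4 for each of the 6 genes in a test of the difference itself (edgeR, 3.52% of all tested genes were called higher). The difference was 4.86 on the log2 scale for ISG15 (SE 0.26, adjusted p = 7.01e-18), 4.50 for USP18 (SE 0.28, adjusted p = 5.74e-16), 4.35 for HERC5 (SE 0.23, adjusted p = 6.45e-18), 3.50 for HERC6 (SE 0.19, adjusted p = 9.92e-18), 3.40 for UBE2L6 (SE 0.18, adjusted p = 5.74e-18) and 1.44 for UBA7 (SE 0.14, adjusted p = 2.60e-10). Each gene was higher in 3 of 3 double-targeted libraries of day 5 than in any of day 4. Groups of 3 or fewer libraries were not searched for single libraries that stand apart.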

How the results depend on the processing

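Counts of called members or introns were recalculated under the settings other than leaving out a library. Of these, 281 stayed within 1.5 times the reported count, 9 were larger and 4 smaller. Counts of 0 that remained 0 are among the 281. No called value changed direction under any alternative, left-out libraries included. The counts of 6 in IFN-α, in ADAR+hnRNPC cells of day 5 and in the day 5 interaction were 6 in each refit. For ADAR targeting on day 5 the count of 1 became 0 with GFP as control, and ranged from 0 to 1 when each library was left out, the 0 being without ADAR replicate 1. Between cytosol and insoluble material the count of 2 became 1 in DESeq2, with raw library totals and with the replicate block, and ranged from 1 to 2 with a library left out, the lost gene being ISG15 without replicate 1 of either group. For UBA7 in cytosol against total RNA the count ranged from 0 to 1. The interaction in total RNA went from 0 to 1 gene (HERC5) in DESeq2, without the filter and with the replicate block. Without the filter, 83 introns were tested and the counts called higher were 69 with IFN-α (0.627% of all 184258 introns), 2 and 6 in hnRNPC-targeted cells of days 3 and 5 (0.853% and 3.05%), and 1, 19 and 82 in ADAR+hnRNPC cells of days 3, 4 and 5 (0.574%, 2% and 5.14%). Called lower were 1, 1 and 3 in hnRNPC-targeted cells of days 3, 4 and 5 (0.119%, 0.528% and 1.54%). These 83 introns cover all 6 genes, whereas the 7 introns tested with the filter were all of UBA7. On day 4 the interaction of UBE2L6 passed in 7 settings (adjusted p 0.010 to 0.040) and missed in edgeR with TMM (0.110) and RLE factors (0.144) and in each fit without 1 library (0.066 to 0.236). Its call in ADAR-targeted total RNA was lost with RLE factors (adjusted p = 0.055) and raw totals (0.055), and when CTRL replicate 2 or either ADAR replicate was left out, and in ADAR-targeted cytosol it was lost in DESeq2 (0.051) and without either CTRL replicate or ADAR replicate 1. The replicate block changed no count in the 21 comparisons of 2 groups in study 1, and 40 of 48 libraries followed their own number best. Study 2 had 2 replicates per group, and a left-out library left a group with 1 library assumed to vary like the others. The cause of these changes was not tested.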
